A study of Mus musculus with 20 samples.

Results

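Genes that move and conjugate bile acids in the hepatocyte, and the nuclear receptors that govern them, were followed in mouse liver after an LNA against the snoRNA SNORA73. They are Slc10a1, Slco1b2, Slco1a1, Abcb11, Abcb4, Abcc2, Baat, Slc27a5, Nr1h4 and Nr0b2, chosen by name, and all 10 were found among the 53028 Ensembl genes of the table. Male C57BL/6J mice, with no other allele, were injected intraperitoneally with a locked nucleic acid (LNA), an antisense oligonucleotide, against SNORA73 or, as control, against GFP, which these mice do not carry. The dose of 3 mg/kg was given 3 times, on alternate days, and the mice were killed 2 days after the last injection. The series' design gives an age of 8 weeks at injection, while the methods for liver polysomes give 10 weeks and a cycloheximide injection before the liver was taken. Each group had 5 mice: mice 1, 2, 3, 8 and 9 received GFP LNA and mice 4, 6, 10, 11 and 12 received SNORA73 LNA. Both groups were fed chow, and the LNAs reach every organ that takes them up, so exposure was not restricted to hepatocytes. From each liver, total RNA of the lysate and RNA of the polysome fractions were sequenced after poly(A) selection, which gave 20 libraries. In the labels of the samples the target is spelled Snora37; the name SNORA73 LNA used here follows the series' design.

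Bile acids are made from cholesterol in hepatocytes, joined to taurine or glycine, pumped into the bile canaliculus, taken up again in the ileum and returned to the liver in portal blood. On the blood side, NTCP (Slc10a1) and the organic anion transporters (Slco1b2, Slco1a1) take them up. On the canalicular side, BSEP (Abcb11) exports bile salts, the phosphatidylcholine floppase MDR2 (Abcb4) supplies the phospholipid that shields the duct epithelium from them, and MRP2 (Abcc2) exports conjugated organic anions. The bile acid receptor FXR (Nr1h4) induces Abcb11 and the repressor SHP (Nr0b2), which in turn lowers bile acid synthesis.

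The libraries of total RNA held 20005389 to 42023390 counts each, those of polysome RNA 14852951 to 33824659. The snoRNAs themselves could not be checked, because Snora73a and Snora73b held 0 to 4 counts in a library of poly(A)-selected RNA, at which no fold is given. Their host gene Snhg3 lay at 3.92 to 5.13 CPM (counts scaled to library size) with GFP LNA and 3.17 to 7.24 CPM with SNORA73 LNA in total RNA. Hepatocyte markers were abundant in these livers: the 5 markers matched summed to 31860 to 59540 CPM in total RNA, and the cholangiocyte markers Krt19, Krt7 and Cftr stayed at or under 1.02 CPM in every library. The 6 cholangiocyte markers together, with Epcam, Sox9 and Spp1, summed to 12.6 to 53.5 CPM in total RNA. Nr0b2 had the fewest counts of the members, 193 to 977 in a library, Nr1h4 had at least 792, and each of the others at least 1157, so all 10 passed the filter on low counts in every fit. The study worked with 4 mice a group, having dropped 1 liver of each that stood apart in a principal component analysis, without naming them. Fits that leave out mouse 9 (GFP LNA) and mouse 10 (SNORA73 LNA), a choice made with earlier results of these data known, are therefore given beside those of all 10 mice where they differ.

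The promoters were read first for the element that FXR is known to bind, an inverted repeat spelled AGGTCANTGACCT, with N any base. Windows from 250 bases before to 50 bases after a RefSeq start (GRCm38.p6) were at hand for 8 of the 10 genes (9 windows), and none for Baat and Slc27a5. Those of Nr1h4, Slco1b2 and Abcb4, and 1 of Slc10a1, lie at starts inside the span of the gene. Both strands were searched, which for a palindrome is a single search. A stretch with 1 mismatch was found in Abcb11 and in Slco1b2, which 27 of 32851 promoter windows, 0.0822%, hold with at most 1. These windows are printed because their genes carry the nearest matches among the members, one an exporter and one an uptake carrier. The window of Abcb11 lies at chr2:69342567-69342866 on the minus strand and that of Slco1b2 at chr6:141629268-141629567 on the plus strand, each 5′ to 3′ in the gene's direction, with the match in capitals:
Abcb11: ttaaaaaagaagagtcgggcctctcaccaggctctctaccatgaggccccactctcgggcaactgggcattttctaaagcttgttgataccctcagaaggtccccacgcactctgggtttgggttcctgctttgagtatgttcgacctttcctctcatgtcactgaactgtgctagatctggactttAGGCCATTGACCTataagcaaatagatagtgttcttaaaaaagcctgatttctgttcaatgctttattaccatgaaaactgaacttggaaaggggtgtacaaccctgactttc
Slco1b2: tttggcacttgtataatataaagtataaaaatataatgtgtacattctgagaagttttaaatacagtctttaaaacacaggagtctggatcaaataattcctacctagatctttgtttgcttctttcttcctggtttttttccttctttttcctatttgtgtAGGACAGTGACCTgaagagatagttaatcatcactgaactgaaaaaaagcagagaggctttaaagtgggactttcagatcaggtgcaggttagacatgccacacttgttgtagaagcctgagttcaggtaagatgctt
The match lies 63 to 51 bases before the window's start in Abcb11 and 88 to 76 bases before it in Slco1b2. In Slco1b2 that start lies downstream of the gene's first base at 141629452. In Slco1a1 the direct repeat AGGTCANAGGTCA, searched on both strands, was met with 1 mismatch, which 0.554% of windows hold with at most 1. The windows of Slc10a1, Slco1a1, Abcb4, Abcc2, Nr1h4 and Nr0b2 had at least 3 mismatches to the inverted repeat. A match describes these letters alone, and the counts of the RNA say nothing about binding.

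The first question was whether SNORA73 LNA changed the total level of these mRNAs. None of the 10 passed an FDR of 0.05 in total RNA with edgeR's quasi-likelihood test, and 4 of 13195 genes tested, 0.0303%, did. At an unadjusted p under 0.05 the count was 1 member, Baat, against 8.65% of genes tested, and limma-voom and DESeq2 called 0 members as well. Of all genes tested limma-voom called 5 higher and 0 lower, and DESeq2 49 higher and 26 lower. Of the 10, 5 had an edgeR log2 fold change above 0 and 5 below, with a median of 0.01 against 0.01 over all genes tested. Without mice 9 and 10 the count was still 0, while 0.745% of genes tested were called. In polysome RNA 0 members were called by edgeR, limma-voom and DESeq2, where edgeR called 0.0153% of 13060 genes tested. Of the same genes limma-voom called 2 higher and 0 lower, and DESeq2 231 higher and 50 lower. With edgeR 2 members, Baat and Abcb4, had an unadjusted p under 0.05 in polysome RNA, as did 13.4% of genes tested. Without mice 9 and 10, 0 members and 0.242% of genes tested were called. Because these are bulk samples, fewer hepatocytes and less of a message per hepatocyte cannot be told apart. Values below are CPM after TMM normalization within each RNA, in the order of the mice given above. Fold changes are log2 of SNORA73 LNA over GFP LNA with their standard error (SE), and adjusted p-values are edgeR's, adjusted by Benjamini-Hochberg over all genes tested.

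**Figure D1:**
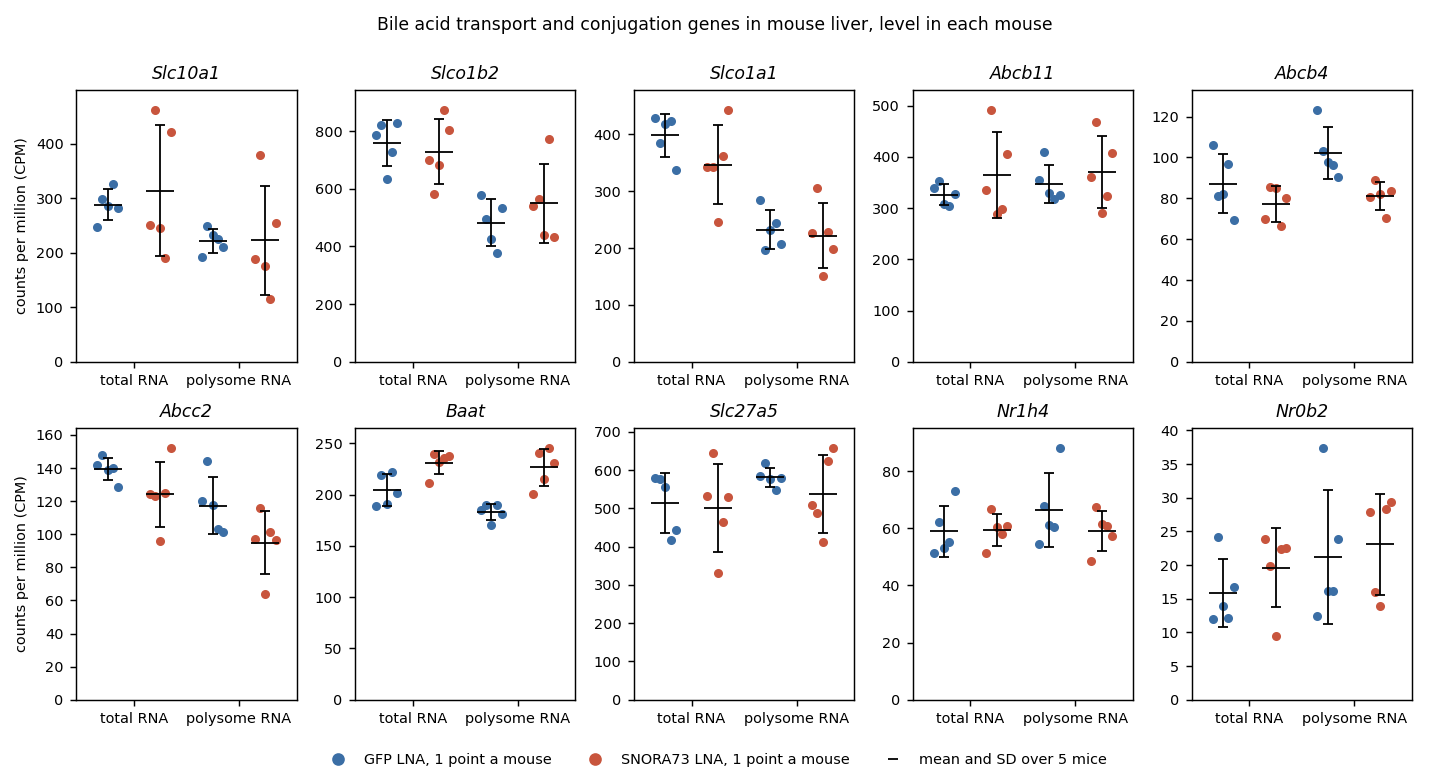
Level of each gene in CPM (linear axis from 0) in total and polysome RNA of every mouse, with GFP LNA in blue and SNORA73 LNA in red; points are mice, and the black bar and whiskers are mean and SD over 5 mice. The groups overlap in every panel of total RNA and, in polysome RNA, part only in Abcb4 and Baat.

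Among the uptake carriers, NTCP was the least even between mice. Slc10a1 (ENSMUSG00000021135, chromosome 12, 80953185 to 80968705), the main sodium-dependent importer of conjugated bile acids, read 247, 298, 286, 326 and 282 CPM with GFP LNA and 252, 462, 245, 189.8 and 423 CPM with SNORA73 LNA in total RNA. Mice 6 and 12 lay above all GFP LNA mice and mice 10 and 11 below all of them, so the SNORA73 LNA group surrounded the controls. The group means were 288 ± 28.5 (SD, n = 5) and 314 ± 120.0 (SD, n = 5), a log2 fold change of 0.14 (SE 0.21, adjusted p = 0.901). In polysome RNA the values were 192, 249.5, 233, 225 and 210.5 CPM with GFP LNA and 189, 379, 175, 116 and 255 CPM with SNORA73 LNA. Mouse 6 again stood highest and mouse 11 lowest, 3.27 times apart, and the log2 fold change was 0.02 (SE 0.24, adjusted p = 0.985). Slco1b2 (ENSMUSG00000030236, chromosome 6, 141629452 to 141686646), the counterpart of human OATP1B carriers for unconjugated bile acids and bilirubin, read 787, 821, 634, 726 and 828 CPM with GFP LNA and 700.4, 582, 681, 872 and 803 CPM with SNORA73 LNA in total RNA. The groups overlapped, with mouse 6 lowest and mouse 11 highest, and the log2 fold change was −0.04 (SE 0.13, adjusted p = 0.959). On polysomes it read 578, 495, 427, 376 and 533 CPM with GFP LNA and 539.7, 563, 439, 773 and 433 CPM with SNORA73 LNA, where mouse 11 alone lay above all controls. The log2 fold change was 0.21 (SE 0.18, adjusted p = 0.664), and without mice 9 and 10 it was 0.32 (adjusted p = 0.486, range over 18 alternatives 0.486 to 0.922). Slco1a1 (ENSMUSG00000041698, chromosome 6, 141907281 to 141946962), a broad organic anion carrier of male mouse liver, read 428, 384, 418, 423 and 338 CPM with GFP LNA and 342, 343, 246, 361 and 442 CPM with SNORA73 LNA in total RNA. Mouse 10 was lowest and mouse 12 highest, both in the SNORA73 LNA group, and the log2 fold change was −0.18 (SE 0.13, adjusted p = 0.771). In polysome RNA the values were 284, 197, 232, 243 and 207 CPM with GFP LNA and 226, 306, 151, 229 and 198 CPM with SNORA73 LNA. Here mouse 6 was highest and mouse 10 lowest, with a log2 fold change of −0.05 (SE 0.18, adjusted p = 0.928).

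Of the 3 canalicular exporters, Abcb4 separated the groups on polysomes and the others did not. Abcb11 (ENSMUSG00000027048, chromosome 2, 69238282 to 69342616), the bile salt export pump whose loss causes cholestasis, read 339, 353, 308, 304 and 328 CPM with GFP LNA and 336, 491, 289, 299 and 406 CPM with SNORA73 LNA in total RNA. Mice 6 and 12 lay above and mice 10 and 11 below all controls, as for Slc10a1, and the log2 fold change was 0.18 (SE 0.14, adjusted p = 0.783). In polysome RNA it read 354, 409, 329, 317 and 326 CPM with GFP LNA and 359.9, 469, 291, 323 and 407 CPM with SNORA73 LNA, where mouse 6 alone lay above and mouse 10 alone below all controls (log2 0.11, SE 0.15, adjusted p = 0.797). Abcb4 (ENSMUSG00000042476, chromosome 5, 8893614 to 8959226), the floppase that loads phosphatidylcholine into bile, read 106, 80.96, 82.2, 96.7 and 69.4 CPM with GFP LNA and 69.99, 85.5, 84.96, 66.2 and 80.01 CPM with SNORA73 LNA in total RNA. Mouse 11 alone lay below all controls. The log2 fold change was −0.15 (SE 0.12, adjusted p = 0.794), and without mice 9 and 10 it was −0.25 (adjusted p = 0.425, range over 18 alternatives 0.281 to 1). In polysome RNA it read 123, 103, 97.8, 96.3 and 90.3 CPM with GFP LNA and 80.4, 88.9, 81.9, 70.3 and 83.8 CPM with SNORA73 LNA. All 5 SNORA73 LNA mice lay below all 5 controls, with means of 81.1 ± 6.83 (SD, n = 5) against 102.2 ± 12.6 (SD, n = 5). The log2 fold change of −0.32 (SE 0.12) had an adjusted p of 0.29, and over 18 alternatives it lay between −0.47 and −0.24 with adjusted p of 0.15 to 0.486. Abcc2 (ENSMUSG00000025194, chromosome 19, 43782308 to 43838332), the canalicular pump for bilirubin glucuronides and glutathione conjugates, read 142, 148, 139, 140.2 and 129 CPM with GFP LNA and 124, 123, 96.2, 125 and 152 CPM with SNORA73 LNA in total RNA. Of the SNORA73 LNA mice, 4 lay below all controls and mouse 12 above them, and the log2 fold change was −0.15 (SE 0.11, adjusted p = 0.76). Its polysome values were 120.1, 144, 118, 103 and 101 CPM with GFP LNA and 97.2, 116, 64.1, 101 and 96.6 CPM with SNORA73 LNA, with 3 mice below all controls and none above (log2 −0.29, SE 0.16, adjusted p = 0.467).

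Conjugation takes a pair of enzymes, and for one of them, Baat, the groups parted on polysomes. Slc27a5 (ENSMUSG00000030382, chromosome 7, 12988346 to 12998192), the synthetase that activates bile acids to their CoA esters, read 579, 575, 555, 416 and 443 CPM with GFP LNA and 532, 645, 332, 464 and 529 CPM with SNORA73 LNA in total RNA. The groups overlapped, with mouse 6 highest and mouse 10 lowest (log2 −0.02, SE 0.16, adjusted p = 0.991). In polysome RNA it read 584, 618, 576, 547 and 578 CPM with GFP LNA and 509.6, 487, 411, 624 and 657 CPM with SNORA73 LNA. The controls lay within 547 to 618 CPM while all 5 SNORA73 LNA mice lay outside that range, 3 below and 2 above, with means of 538 ± 101 (SD, n = 5) and 581 ± 25.5 (SD, n = 5) and a log2 fold change of −0.09 (SE 0.14, adjusted p = 0.823). Baat (ENSMUSG00000039653, chromosome 4, 49489416 to 49507915), which joins the CoA ester to taurine in mice, read 189, 219, 191, 222 and 201 CPM with GFP LNA and 212, 239, 232, 236 and 237 CPM with SNORA73 LNA in total RNA. Of the SNORA73 LNA mice, 4 lay above all controls and mouse 4 lay among them. The means were 231 ± 11.2 (SD, n = 5) and 204 ± 15.5 (SD, n = 5), and the log2 fold change was 0.20 (SE 0.087, adjusted p = 0.544). In polysome RNA Baat read 185, 189.8, 171, 189.7 and 181 CPM with GFP LNA and 201, 241, 215, 245 and 231 CPM with SNORA73 LNA. The lowest SNORA73 LNA mouse, mouse 4, lay above the highest control, and the means were 227 ± 18.4 (SD, n = 5) and 183 ± 7.92 (SD, n = 5). The log2 fold change was 0.32 (SE 0.11), a fold of 1.25, with an adjusted p of 0.246. With DESeq2 the adjusted p was 0.0515, and over 18 alternatives it ranged from 0.0511 to 0.505 with log2 fold changes of 0.17 to 0.36.

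In all, 2 of the 10 members, Baat and Abcb4, did not overlap between the groups in polysome RNA, where 3.22% of genes tested did not overlap. In total RNA no member was free of overlap, against 1.83% of genes tested. Neither gene passed the test across all genes in either RNA. In the same polysome libraries the summed level of 5 sinusoidal endothelial markers ran from 78.0 to 90.6 CPM in the controls and 96.6 to 108.9 CPM in the SNORA73 LNA mice, also without overlap. In total RNA that sum was 95.2 to 115.9 CPM against 113.5 to 125.4 CPM, and of its genes Stab2 alone passed in total RNA (log2 1.06, adjusted p = 0.0497, edgeR; 0.00229 without mice 9 and 10). Of these 5 markers 4 were higher and 1 lower in total RNA (median log2 0.25), and 5 higher and 0 lower in polysome RNA (median log2 0.21). Their part in the values of Baat and Abcb4 was not tested. Scaling by library totals in place of TMM shifted all genes to a median log2 fold change of −0.14 in total and −0.17 in polysome RNA. Relative to that shift Baat stayed on the higher side (log2 0.05 in total and 0.17 in polysome RNA) and Abcb4 on the lower (−0.30 and −0.47).

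Neither regulator separated the groups in either RNA. Nr1h4 (ENSMUSG00000047638, chromosome 10, 89454234 to 89533645), encoding the bile acid receptor FXR, read 51.2, 62.4, 53.1, 55.1 and 72.9 CPM with GFP LNA and 51.2, 66.9, 60.4, 58.1 and 60.7 CPM with SNORA73 LNA in total RNA. Mouse 9, a control, was highest, and the log2 fold change was 0.03 (SE 0.12, adjusted p = 0.972). In polysome RNA it read 54.5, 67.7, 61.1, 60.5 and 88.04 CPM with GFP LNA and 48.4, 67.3, 61.7, 60.7 and 57.4 CPM with SNORA73 LNA. Mouse 9 was again highest, and the log2 fold change of −0.15 (SE 0.14, adjusted p = 0.696) became −0.04 (SE 0.14, adjusted p = 0.932, range over 18 alternatives 0.3 to 0.97) without mice 9 and 10. Nr0b2 (ENSMUSG00000037583, chromosome 4, 133553376 to 133556686), encoding SHP, a classical target of FXR, read 12.05, 24.1, 13.8, 12.1 and 16.8 CPM with GFP LNA and 23.8, 19.8, 9.51, 22.4 and 22.5 CPM with SNORA73 LNA in total RNA. It was the most variable member, with a coefficient of variation of 31.2% over the 10 mice. Of the SNORA73 LNA mice, 4 lay between 19.8 and 23.8 CPM, mouse 10 stood at 9.51, and of the controls mouse 2 alone, at 24.1 CPM, lay as high. The log2 fold change was 0.33 (SE 0.25, adjusted p = 0.775), and without mice 9 and 10 it was 0.53 (SE 0.20, adjusted p = 0.329, range over 18 alternatives 0.329 to 1). In polysome RNA it read 12.4, 37.3, 16.2, 16.1 and 23.9 CPM with GFP LNA and 27.9, 16.04, 13.9, 28.3 and 29.3 CPM with SNORA73 LNA, 3.00 times apart at the extremes. Mouse 2 was highest and mouse 1 lowest, both controls, and the log2 fold change was 0.14 (SE 0.30, adjusted p = 0.877), and without mice 9 and 10 it was 0.33 (adjusted p = 0.69, range over 18 alternatives 0.576 to 0.997). Of the members whose value without mice 9 and 10 is not given above, the log2 fold changes in total RNA were then 0.22 for Slc10a1, 0.02 for Slco1b2, −0.12 for Slco1a1, 0.26 for Abcb11, −0.09 for Abcc2, 0.20 for Baat, 0.06 for Slc27a5 and 0.12 for Nr1h4. On polysomes they were 0.08 for Slc10a1, 0.03 for Slco1a1, 0.17 for Abcb11, −0.35 for Abcb4, −0.21 for Abcc2, 0.34 for Baat and −0.0049 for Slc27a5. Without these mice the lowest adjusted p of any member was 0.329 in total RNA, that of Nr0b2, and 0.252 in polysome RNA.

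**Figure D2:**
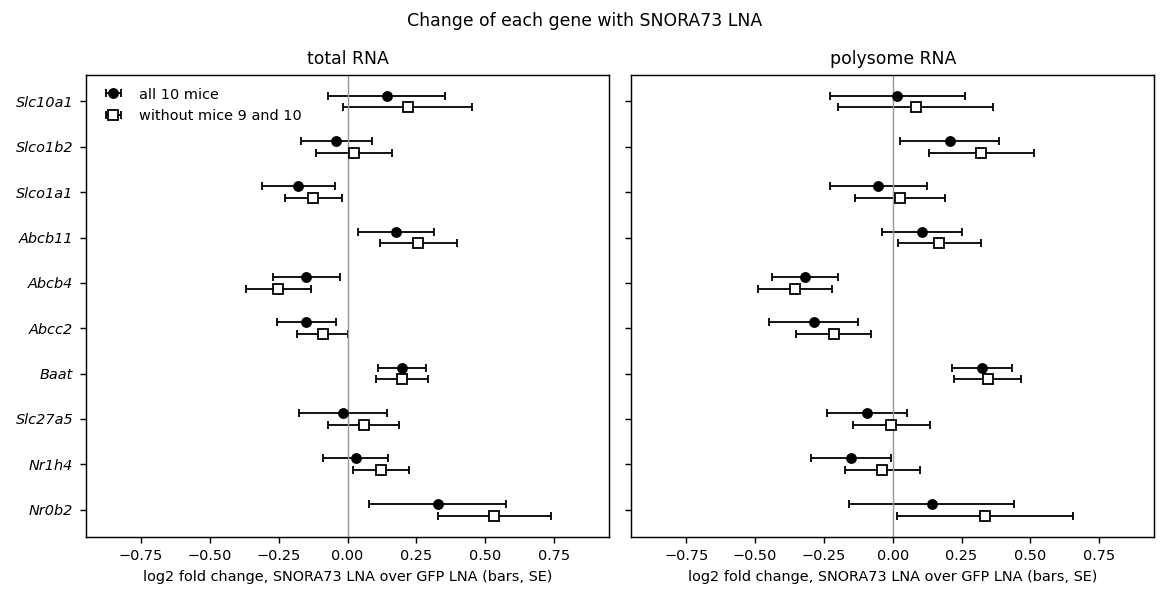
Log2 fold change of SNORA73 LNA over GFP LNA for each gene in total RNA (left) and polysome RNA (right), with bars of the SE from edgeR; filled circles use all 10 mice and open squares leave out mice 9 and 10. The estimates lie between −0.32 for Abcb4 and 0.33 for Nr0b2 with all mice, and no gene passed an FDR of 0.05.

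The next question was whether a message sat on polysomes out of proportion to its total level, for which each mouse's polysome CPM was set over its total CPM after TMM over all 20 libraries. This ratio is relative to the other messages of the libraries, so a log2 ratio of 0 is that of the typical message after TMM. With GFP LNA 2 members, Slco1b2 and Slco1a1, were lower on polysomes (FDR under 0.05), against 21.0% of genes tested lower, and 0 were higher, against 21.8%. With SNORA73 LNA 3 members, Slco1b2, Slco1a1 and Abcc2, were lower, against 18.2%, and 0 higher, against 19.7%. In 5 members, Slc10a1, Slco1b2, Slco1a1, Abcc2 and Baat, the ratio was under 1 in all 10 mice, which held for 20.1% of genes tested, and in 0 members it was over 1 in all mice, against 18.9%. Both RNAs came from one liver. With the mouse as a replicate block 7 members differed with GFP LNA (5 lower, 2 higher) and 4 with SNORA73 LNA (4 lower, 0 higher). Under that block 27.2% of all genes were lower and 28.9% higher in the controls, and 25.1% and 26.0% in the SNORA73 LNA mice.

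The 3 uptake carriers had a log2 ratio below 0 in every mouse. Slco1a1 stood at −0.62, −1.04, −0.92, −0.86 and −0.74 in the controls and −0.67, −0.21, −0.71, −0.73 and −1.24 in the SNORA73 LNA mice. Mouse 12 was lowest and mouse 6 highest, and the fit gave −0.81 (SE 0.16, adjusted p = 0.000474) with GFP LNA and −0.68 (SE 0.16, adjusted p = 0.00238) with SNORA73 LNA. Slco1b2 stood at −0.47, −0.81, −0.63, −1.01 and −0.67 in the controls and −0.44, −0.09, −0.64, −0.25 and −0.97 with SNORA73 LNA, again with mouse 6 highest. Its fitted log2 ratio was −0.69 (SE 0.16, adjusted p = 0.00171) and −0.44 (SE 0.16, adjusted p = 0.0349). The latter call was lost without mice 9 and 10 (adjusted p = 0.0879) and when SNORA73 LNA mouse 4, 10 or 12 alone was left out (0.0784, 0.0816 and 0.17), while under the block the adjusted p was 0.00256, the lowest of 19 alternatives. Slc10a1 stood at −0.39, −0.33, −0.36, −0.60 and −0.45 in the controls and −0.48, −0.33, −0.49, −0.79 and −0.81 with SNORA73 LNA, with mice 11 and 12 lowest. Its fitted ratio missed the threshold without the block (log2 −0.41 and −0.53, adjusted p = 0.188 and 0.0959) and passed it with the block (adjusted p = 0.000429 and 3.43e-05, the highest over 19 alternatives being 0.343 and 0.23).

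The exporters differed among themselves. Abcc2 stood at −0.26, −0.12, −0.30, −0.51 and −0.38 in the controls and −0.42, −0.13, −0.59, −0.37 and −0.73 with SNORA73 LNA, below 0 in every mouse. The fitted log2 ratio was −0.29 (SE 0.14, adjusted p = 0.102, with the block 0.01) with GFP LNA and −0.42 (SE 0.14, adjusted p = 0.0205, with the block 0.000899) with SNORA73 LNA. Leaving out SNORA73 LNA mouse 4 or mouse 12 alone ended the latter call without the block (adjusted p = 0.0516 and 0.0981), with 0.000899 to 0.0981 over 19 alternatives. Abcb11 stayed between −0.11 and 0.14 in all 10 mice, with fitted log2 ratios of 0.05 (SE 0.14) and −0.01 (SE 0.14) and adjusted p of 0.787 and 0.957. Abcb4 stood at 0.19, 0.27, 0.19, −0.07 and 0.35 in the controls and 0.13, 0.01, −0.06, 0.01 and −0.01 with SNORA73 LNA. Its fitted log2 ratio of 0.20 with GFP LNA had an adjusted p of 0.19 without and 0.0266 with the block, and 0.166 with the block and without mice 9 and 10 (0.0266 to 0.44 over 19 alternatives). With SNORA73 LNA it was 0.03 (SE 0.12, adjusted p = 0.865).

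Of the conjugating enzymes, Baat stood at −0.06, −0.28, −0.23, −0.29 and −0.19 in the controls and −0.14, −0.04, −0.12, −0.02 and −0.12 with SNORA73 LNA. The fitted log2 ratio with GFP LNA was −0.19 (SE 0.087, adjusted p = 0.077, with the block 0.0184, over 19 alternatives 0.0142 to 0.247), and with SNORA73 LNA −0.07 (SE 0.087, adjusted p = 0.582). Slc27a5 stood at −0.01, 0.03, −0.01, 0.33 and 0.35 in the controls and −0.13, −0.45, 0.30, 0.35 and 0.23 with SNORA73 LNA, with the mice of each group on both sides of 0. Among the regulators Nr1h4 stood at 0.06, 0.04, 0.14, 0.07 and 0.24 in the controls and −0.15, −0.03, 0.02, −0.01 and −0.16 with SNORA73 LNA. It was the 1 member whose ratio did not overlap between the groups, as in 1.75% of genes tested, and all 5 controls lay above the highest SNORA73 LNA mouse, mouse 10. Nr0b2 stood at 0.02, 0.55, 0.16, 0.35 and 0.48 in the controls and 0.16, −0.35, 0.54, 0.27 and 0.30 with SNORA73 LNA, with mouse 6 alone below 0. Its fitted log2 ratio with GFP LNA was 0.38 (SE 0.30, adjusted p = 0.317), and the block brought the adjusted p to 0.0177, or to 0.086 without mice 9 and 10 (0.0177 to 0.484 over 19 alternatives).

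**Figure D3:**
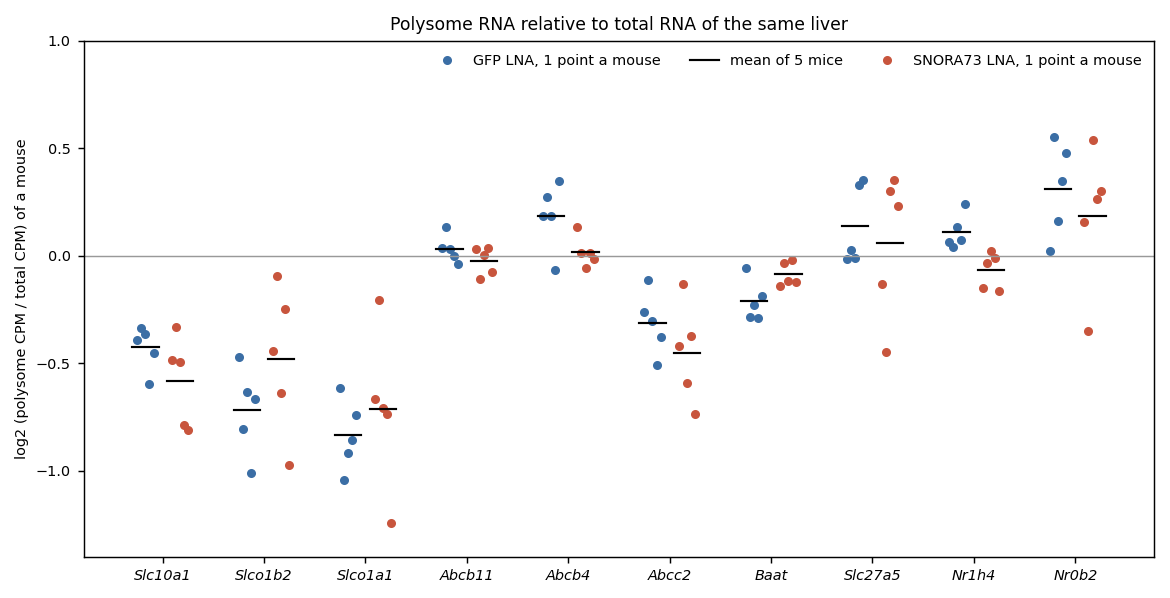
Log2 of polysome CPM over total CPM of the same liver for each gene, with GFP LNA in blue and SNORA73 LNA in red; points are mice, the black line is the mean of 5 mice and the grey line is 0. Slc10a1, Slco1b2, Slco1a1, Abcc2 and Baat lie below 0 in all 10 mice, and the groups part only for Nr1h4.

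Whether SNORA73 LNA changed the polysome level beyond the total level was tested by an interaction term. No member passed with edgeR, where 1 of 13795 genes tested, 0.00725%, passed. Likewise limma-voom and DESeq2 called 0 members, and of all genes tested 0 (limma-voom) and 5 higher and 2 lower (DESeq2). At an unadjusted p under 0.05 with edgeR the count was 0 members, against 2.91% of genes tested. The interaction ranged from −0.19 (SE 0.42) for Nr0b2 to 0.25 (SE 0.23) for Slco1b2 on the log2 scale, 7 members below 0 and 3 above. Slco1b2, Slco1a1 and Baat were the 3 above, and every adjusted p was 1. The edgeR fit does not pair the 2 libraries of a mouse. With the mouse as a block the smallest adjusted p was 0.639, that of Nr1h4 at log2 −0.18 (SE 0.092). Under the block 0 members had an unadjusted p under 0.05, as did 1108 of 13795 genes tested.

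Mice of the same group differed in most members, so the total level of each member was set against the polysome level of the same mouse (log2 CPM, 10 mice, two-sided permutation test with 100000 resamples, 10 relations). Pearson's r had a Benjamini-Hochberg adjusted p under 0.05 in 7 of 10 members, 6 without mice 9 and 10 and 6 after each LNA group was centred on its mean. The lowest r among these 7 was 0.77, that of Abcb4, and 18.5% of 13037 genes read in every library had an r at least as high, with a median r of 0.48 over those genes and 0.82 over the members. Slc10a1 had r = 0.93 (p = 9e-05, adjusted p = 0.00045, permutation) and Spearman's rho = 0.95 (p = 0.00012, adjusted p = 0.0006, permutation), with r = 0.83 once mice 6 and 11 were left out. Abcb11 had r = 0.94 (p = 2e-05, adjusted p = 0.0002, permutation) and rho = 0.95 (p = 0.00011, adjusted p = 0.0006, permutation), with r = 0.92 without mice 6 and 12. Nr0b2 had r = 0.87 (p = 0.00304, adjusted p = 0.00608, permutation) and rho = 0.88 (p = 0.00151, adjusted p = 0.00395, permutation), with r = 0.81 without mice 1 and 10. The livers high in these 3 messages in total RNA were thus high in them on polysomes. Baat (r = 0.88) and Nr1h4 (r = 0.88) also passed on both measures, with permutation adjusted p of 0.0034 and 0.00157 for r and 0.00395 and 0.00958 for rho. Without mice 9 and 10 both kept an adjusted p under 0.05 for r (0.0138 and 0.0357, permutation) and missed it for rho (0.0544 and 0.0613, permutation).

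Abcb4 and Abcc2 passed on r alone (r = 0.77 and 0.78, permutation adjusted p = 0.0154 and 0.0264; for rho 0.124 and 0.353). For Abcb4 r fell to 0.36 without mice 1 and 11, the farthest from the median in total RNA. It was 0.87 without mice 9 and 10 (permutation adjusted p = 0.0138) and 0.80 after centring (0.0106). For Abcc2 r was 0.70 without mice 10 and 12, its farthest, and 0.31 without mice 9 and 10 (permutation adjusted p = 0.559). After centring r of Abcc2 was 0.70 (permutation adjusted p = 0.0546). Slco1b2, Slco1a1 and Slc27a5 did not pass (r = 0.35, 0.53 and 0.45, permutation adjusted p = 0.327, 0.158 and 0.22), nor did their rho (0.28, 0.33 and 0.13, permutation adjusted p = 0.473, 0.437 and 0.734). For Slc27a5 r became −0.44 without mice 8 and 10, mouse 6 being highest of all in total RNA and, but for mouse 10, lowest on polysomes.

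**Figure D4:**
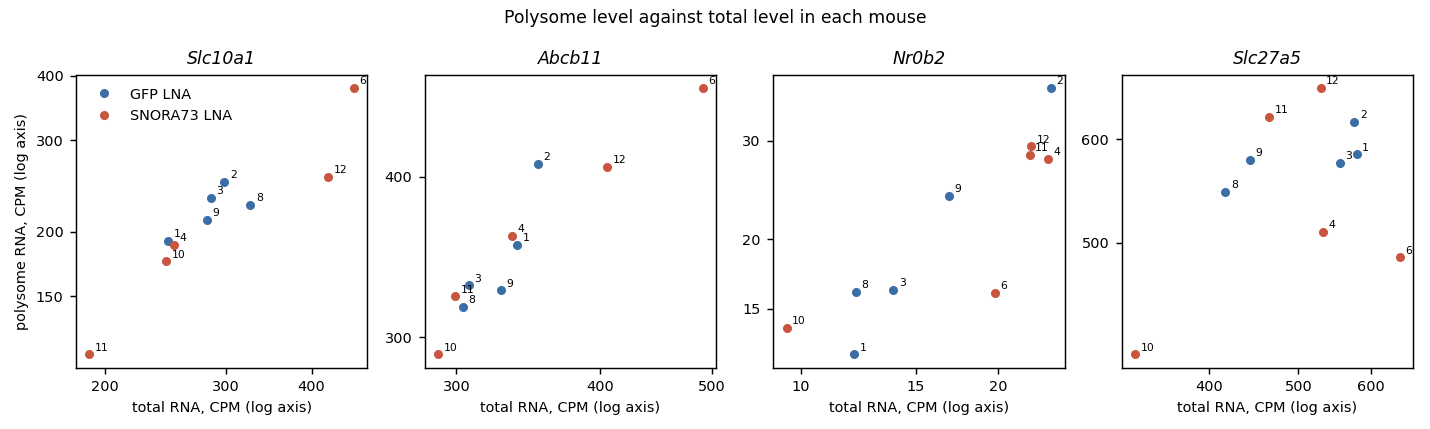
Polysome CPM against total CPM of the same liver (both axes log) for Slc10a1, Abcb11, Nr0b2 and Slc27a5; points are mice, numbered, with GFP LNA in blue and SNORA73 LNA in red. The first 3 genes line up over the 10 mice (r = 0.93, 0.94 and 0.87), and Slc27a5 does not (r = 0.45).

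Pairs of members were compared over the 20 libraries after each of the 4 groups was centred on its mean, as a description, since the libraries of a liver and its depth are shared. Slc10a1 and Abcb11, the importer and the exporter of bile salts, were the most alike pair (r = 0.78), then Slco1a1 and Abcc2 (r = 0.72) and Abcb11 and Abcc2 (r = 0.66). Slc27a5 and Nr0b2 had r = 0.62, while Abcb4 and Nr0b2 ran opposite (r = −0.53), as did Slc10a1 and Slco1b2 (r = −0.45). Nr1h4 and Nr0b2, the receptor and its target, had r = 0.18, and Nr1h4 and Abcb11 r = 0.19. Outside the set, the gene most like Slc27a5 was Retreg2 (r = 0.96), most like Nr0b2 was Grb7 (r = 0.90), and most like Abcb11 was Smap2 (r = 0.90). The genes most like the other members were B230118H07Rik for Slc10a1 (r = 0.89), F5, a coagulation factor, for Slco1b2 (r = 0.87), Car3 for Slco1a1 (r = 0.88), Osgin2 for Abcb4 (r = 0.79), 5730414N17Rik for Abcc2 (r = 0.93), St3gal5 for Baat (r = 0.86) and Wnk4 for Nr1h4 (r = 0.91).

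Of 16 bile acid synthesis genes, 15 were tested in total and 16 in polysome RNA and 0 passed in either, with median log2 fold changes of 0.04 and −0.10 against 0.01 and −0.01 over all genes. The 3 with the largest log2 fold change in total RNA were Cyp7b1 of the alternative pathway (0.42, SE 0.29, adjusted p = 0.745), Cyp2c70, which makes muricholic acids (0.34, SE 0.21, adjusted p = 0.708), and Cyp27a1 (0.20, SE 0.15, adjusted p = 0.767). Cyp7a1, the rate-limiting enzyme, had a log2 fold change of 0.18 (SE 0.41, adjusted p = 0.932). Of 13 other transporters of bile acids and bile lipids 0 passed, with the largest log2 fold changes in Slc51a (−0.83, adjusted p = 0.6), Slc51b (0.64, adjusted p = 0.859) and Abcb1a (−0.60, adjusted p = 0.755), all 3 at or under 1.96 CPM. Of 12 regulators tested 0 passed, led by Nr1h3, the oxysterol receptor LXR alpha (0.30, SE 0.093, adjusted p = 0.378), Nr1i3, the xenobiotic receptor CAR (−0.28, adjusted p = 0.805), and Hnf4a (0.27, adjusted p = 0.715). Of the 8 targets of CAR and PXR and the 8 male-biased liver genes 0 passed, with Cyp2b10 (0.50, adjusted p = 0.848), Gstm3 (−0.475, adjusted p = 0.656), Alas1 (−0.34, adjusted p = 0.829), Serpina1e (0.83, adjusted p = 0.458), Cyp7b1 and Selenbp2 (0.42, adjusted p = 0.796) showing the largest values. Without mice 9 and 10 the log2 fold change in total RNA was 0.58 for Cyp2c70 (adjusted p = 0.158), 0.92 for Cyp2b10 (adjusted p = 0.421) and −0.62 for Alas1 (adjusted p = 0.485), and Slc51b was under the filter on low counts. Without these mice the count was also 0 for each of these 5 lists in both RNAs, and these lists were chosen with earlier results of these data known.

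On polysomes against total RNA, 2 genes of the synthesis list were lower and 4 higher with GFP LNA (1 and 3 without mice 9 and 10), of 16 tested, against 21.0% lower and 21.8% higher over all genes tested. With the mouse as a replicate block, which pairs the RNAs of a liver, 5 were lower and 5 higher, against 27.2% and 28.9%. Adjusted p-values below are of the fit without the block unless the block is named. Cyp7a1 (log2 −1.30, adjusted p = 0.02, and 0.0682 without mice 9 and 10) and Akr1d1, the steroid 5beta-reductase (−1.26, adjusted p = 0.00153), were the lower ones, and Acot8, a peroxisomal thioesterase, was the furthest above (0.997, adjusted p = 3.94e-06). With SNORA73 LNA 3 of the synthesis list were lower and 2 higher, against 18.2% and 19.7% of all genes tested. With the block 8 were lower and 4 higher, against 25.1% and 26.0%. With GFP LNA, 2 of the 13 transporters, Abcc4 (−1.01, adjusted p = 0.0172) and Atp8b1 (−0.94, adjusted p = 0.000121), were lower and 0 higher, against 21.0% and 21.8% of all genes tested. With the block 4 were lower and 1 higher, against 27.2% and 28.9%. With SNORA73 LNA 2 transporters were lower and 1 higher (3 and 1 with the block). Of 12 regulators with GFP LNA, 2 were lower and 3 higher, against those same shares without the block, and 3 and 5 with the block. Without the block Nr5a2 (LRH-1, −0.81, adjusted p = 1.16e-05) and Ppargc1a (−0.92, adjusted p = 0.00208) were lower, and Nr1h3 (0.74) and Rxra, the partner of FXR (0.475), were among the higher ones. With SNORA73 LNA 1 regulator, again Nr5a2 (−0.73, adjusted p = 4.81e-05), was lower and 3 were higher, against 18.2% and 19.7% of all genes tested. With the block 3 were lower and 5 higher. Ppargc1a then had a log2 ratio of −0.47 without the block (adjusted p = 0.102). Of the 3 genes listed as intestinal partners, Fabp6 was at 0 and Fgf15 at or under 0.30 CPM in every library, but Slc10a2, the ileal bile acid importer, was read at 12.5 to 41.9 CPM in total RNA. On polysomes Slc10a2 was at 2.61 to 9.06 CPM, a log2 ratio of −1.81 with GFP LNA (adjusted p = 0.0002) and −1.96 with SNORA73 LNA (adjusted p = 0.000144), and between LNAs its log2 fold change in total RNA was −0.28 (SE 0.33, adjusted p = 0.862), or −0.76 (adjusted p = 0.131) without mice 9 and 10.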

How the data were processed

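Gene counts of 20 libraries (total and polysome RNA of 10 mouse livers) were used as deposited. The authors trimmed reads with fastp, removed those that aligned to rRNA and made estimated counts per Ensembl gene with kallisto and tximport, unnormalized. Transcript-based counts can be split between near-identical genes. The counts were rounded and genes kept with CPM above 0.5 in at least 4 libraries. SNORA73 LNA was compared with GFP LNA in each RNA by edgeR (4.0.16) with TMM normalization and its quasi-likelihood test in R (4.3.3), polysome with total RNA and the interaction in a fit of all 20 libraries, and p-values were adjusted by Benjamini-Hochberg over all genes tested. Alternatives were limma-voom (limma 3.58.1, the test of the study), DESeq2 (1.42.0), other scalings and filters, leaving out mice, and the mouse as a replicate block. The fits were tested on simulated data: of 200 genes changed by 1 on the log2 scale in total RNA, edgeR's test recovered 175 among 13104 tested, with 10 false calls. In polysome RNA it recovered 176 of 200, with 10 false calls, and for the interaction 118 of 200, with 5. The simulated libraries were drawn independently, without the pairing by mouse. Smaller changes, such as the members' estimates between LNAs, were not simulated. Permutation tests of correlations used scipy (1.17.1).

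The total and the polysome library of a number come from the same liver, so the numbers pair the samples. Their deviations from the group means correlated at 0.126 to 0.579 in each mouse. No 2 libraries were identical. Symbols were matched by identifier without its version for 51903 of 53028 Ensembl identifiers, and coordinates and promoter windows are RefSeq's on GRCm38.p6. Levels of different genes were not tested against each other, since counts were not scaled to length. The CPM of cell type markers and the counts of members are set side by side as a description alone. Depth was 14852951 to 42023390 counts in a library, with medians of 31996106 (total RNA, GFP LNA) and 22543046 (total RNA, SNORA73 LNA). The members, the gene lists and the alternatives were chosen with earlier results of these data known. The rule for named genes took all 10 members, from each list the genes passing in a SNORA73 LNA comparison and the 3 with the largest log2 fold change in total RNA, and for each member the 3 genes with the most similar pattern, of which the first is named. Genes named for their polysome ratio, Cyp7a1 and Slc10a2 were chosen after their values were seen. Sinusoidal endothelial markers were Stab2, Kdr, Clec4g, Lyve1 and Fcgr2b, hepatocyte markers Alb, Apoa1, Ttr, Tf, Hnf4a and Serpina1a (5 of 6 matched) and cholangiocyte markers Krt19, Krt7, Epcam, Sox9, Cftr and Spp1. Of the Kupffer cell, stellate cell, blood, pericentral and periportal lists the summed levels overlapped between the groups in both RNAs.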

Additional observations from a re-analysis of the deposited data

Results flagged for a closer look

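In each of 40 groups of 5 mice (10 genes, 2 RNAs, 2 LNAs) the gap of the most extreme mouse to its nearest neighbour was set against the range of the group, with Dixon's critical value of 0.71. Chance passes it in about 1 in 20 groups, and 2 groups passed. Baat in total RNA with SNORA73 LNA had its lowest value in mouse 4, at 211.8 CPM, a gap of 0.745 of the range below the other 4 mice. Nr0b2 in total RNA with SNORA73 LNA had its lowest value in mouse 10, at 9.506 CPM, a gap of 0.719 of the range.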

How the results depend on the processing

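No member was called between LNAs in total or polysome RNA, or in the interaction, under any alternative run, while the number of all genes called moved: edgeR called 4 genes in total RNA (DESeq2 49 higher and 26 lower) and 2 in polysome RNA (DESeq2 231 higher and 50 lower). Without mice 9 and 10 edgeR called 76 higher and 21 lower in total RNA and 27 higher and 4 lower in polysome RNA. The causes of the changes below were not tested. With the mouse as a replicate block the members called on polysomes against total RNA with GFP LNA went from 2 to 7, and to 5 with the block and without mice 9 and 10 (an alternative chosen after the data were seen). Of all genes tested, 21.0% were lower and 21.8% higher without the block, and 27.2% and 28.9% with it. With the block and without mice 9 and 10, 3333 of 13579 genes were lower and 3214 higher. With CPM above 1 in every library the members called with GFP LNA were 4, and leaving out each mouse gave 2 to 4, with 4 without SNORA73 LNA mouse 10. At CPM above 1, 2577 of 10029 genes were lower and 2458 higher, and without mouse 10, 3098 of 13694 were lower and 2983 higher. With SNORA73 LNA the count of members was 3, 4 with the block and 2 without mice 9 and 10, and 1 to 4 over leaving out each mouse, with 1 without mouse 12 or mouse 4. Of all genes tested, 18.2% were lower and 19.7% higher without the block, and 25.1% and 26.0% with it. Without mice 9 and 10, 2438 of 13579 genes were lower and 2476 higher. Without mouse 12, 1960 of 13747 were lower and 2190 higher, and without mouse 4, 2193 of 13708 and 2397.

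Direction turned in members that passed no test between LNAs (log2 fold changes). Without mice 9 and 10 these were Slco1b2 (0.024) and Slc27a5 (0.058) in total RNA and Slco1a1 (0.026) in polysome RNA. With library totals they were Nr1h4 (−0.11) in total RNA, and Slc10a1 (−0.12), Abcb11 (−0.041) and Nr0b2 (−0.027) in polysome RNA, all above the shift of all genes under that scaling (−0.14 in total and −0.17 in polysome RNA), so that relative to the other genes none of these turned. With limma-voom it was Slc10a1 (−0.087) in polysome RNA. For polysome against total RNA they were Abcb11 with GFP LNA (−0.014), Abcb4 (−0.038) and Slc27a5 (−0.0016) with SNORA73 LNA at CPM above 1, and Abcb11 with SNORA73 LNA (0.024) by library totals. The correlation of total and polysome level without mice 9 and 10 was −0.23 for Slco1a1 and −0.25 for Slc27a5.

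Leaving out each mouse in turn gave log2 ranges that crossed 0 in total RNA for Slc10a1 (−0.031 to 0.27), Slco1b2 (−0.12 to 0.034), Slc27a5 (−0.12 to 0.096) and Nr1h4 (−0.025 to 0.12). In polysome RNA this held for Slc10a1 (−0.25 to 0.19), Slco1a1 (−0.19 to 0.066) and Nr0b2 (−0.0028 to 0.45), and in the interaction for Slco1a1 (−0.022 to 0.27) and Slc27a5 (−0.16 to 0.061). For polysome against total RNA it held for Abcb11 (−0.0027 to 0.082 with GFP LNA and −0.028 to 0.014 with SNORA73 LNA) and for Slc27a5 with SNORA73 LNA (−0.014 to 0.20). Of the members' other values under an alternative, 472 of those leaving out a mouse and 419 of the rest kept direction and side of the threshold.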
